A study of Arabidopsis thaliana with 6 samples.

Results

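The genes flanking PIF4 on chromosome 2 of Arabidopsis thaliana were taken as all genes with a named array feature and a locus number from AT2G41200 to AT2G44990, leaving out 2 glycosyl hydrolase family 9 genes. They numbered 125 of the 7234 named genes, out of 412 protein-coding genes annotated in the interval, with 54 before and 71 after PIF4 in gene order. PIF4 itself (AT2G43010) has no named feature, nor have PIF3, PIF1 and PIF5, so none of the 4 mutated genes could be checked by its own transcript. Positions below count protein-coding genes from PIF4 in the TAIR10.1 annotation, which served for names and order only. No build is given for the features, so no coordinates are given.

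The compared seedlings were the pifQ mutant grown in darkness for 60 h (3 arrays) and Col-0 wild type given unbroken red light for the same 60 h (24 μmol m-2 s-1, 3 arrays), and dark-grown Col-0 of 60 h was the other channel of every array. The pifQ mutant carries mutations in PIF3, PIF4, PIL5 (PIF1) and PIL6 (PIF5). All were sampled as seedlings, and their seeds had 3 days at 4 °C, then a white light period of 6 h (100 μmol m-2 s-1), on medium with 1% sucrose. The labels do not name the mutant alleles, the accession in which each arose or any backcrossing, and they do not say how many dark Col-0 extracts served the 6 arrays. Values are log2 ratios with dark-grown Col-0 as denominator, with a base of 2 assumed because the sources used here do not state it. Errors are SDs (n = 3 arrays) unless an SE is named.

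PIFs (phytochrome-interacting factors) are bHLH transcription factors that accumulate in darkness and keep seedlings in the etiolated form, with a long hypocotyl and closed, pale cotyledons. Light-activated phytochromes bind them and send them to breakdown, and a dark-grown mutant that lacks all 4 resembles a light-grown seedling in many features. The neighbours of PIF4 were therefore followed both in dark pifQ and in red-light-grown Col-0, where no PIF gene is mutated. A gene was called changed at an adjusted p under 0.05 by limma, with Benjamini-Hochberg adjustment over all 7234 genes. A change in pifQ but not in red light was read from the test of the difference between the groups, not from a pass in the pifQ test and a miss in the red light test.

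Over the interval, neighbours of PIF4 were called in dark pifQ more than 2-fold as often as genes at large, while in red light they were called about as often. In pifQ against dark Col-0, 31 of 125 were called (24.8%), 17 lower and 14 higher, where 11.6% of all genes were called (7.04% lower and 4.59% higher). With quantile normalization these shares were 31.2% of members and 17.2% of all genes, less than 2-fold apart. With arrays scaled to the same spread they were 28% and 16.8%, also less than 2-fold apart. In red-light-grown against dark-grown Col-0, 47 of 125 were called (37.6%), 21 lower and 26 higher, where 37.8% of all genes were (19% lower and 18.8% higher). In pifQ against red light Col-0, 15 of 125 were called (12.0%), 11 lower and 4 higher in pifQ, against a background of 3.36% (2.20% lower and 1.16% higher). The medians of the members stayed near those of all genes: -0.05 in pifQ and -0.05 in red light over the members, against -0.04 in pifQ and -0.02 in red light over all genes. The calls thus lay in a minority of genes, on both sides of 0.

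These counts rest in part on single arrays. Without pifQ replicate 1 the members called in pifQ numbered 13 (10.4%, where 3.18% of all genes were called), and without pifQ replicate 2 they numbered 17 (13.6%, background 3.98%). The calls against red light fell to 6 without red light replicate 1, 6 without red light replicate 2, 8 without red light replicate 3, 7 without pifQ replicate 1 and 8 without pifQ replicate 2, with backgrounds of 0.843%, 1.45%, 2.21%, 1.12% and 1.13%. The red light calls numbered 27 without red light replicate 1 (21.6%, background 19.8%) and 28 without red light replicate 2 (22.4%, background 23.3%). The pifQ arrays scattered more than the red light arrays: the SD over 3 arrays was larger in pifQ for 88 of the 125 members, with a median of 0.29 in pifQ and 0.18 in red light. Over all named genes, arrays within pifQ correlated at r = 0.423 to 0.615, and within red light at 0.812 to 0.913. pifQ replicate 3 stood apart from its group: it correlated at 0.506 and 0.423 with the other two pifQ arrays and at 0.593 to 0.696 with the red light arrays. Dark Col-0 is the other channel of every array, so part of these correlations may come from it. Without pifQ replicate 3, 33 members were called in pifQ (26.4%, background 9.93%) and 20 against red light (16%, background 7.78%). In both ways 11 were called (8.8%, background 0.843%).

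**Figure D1:**
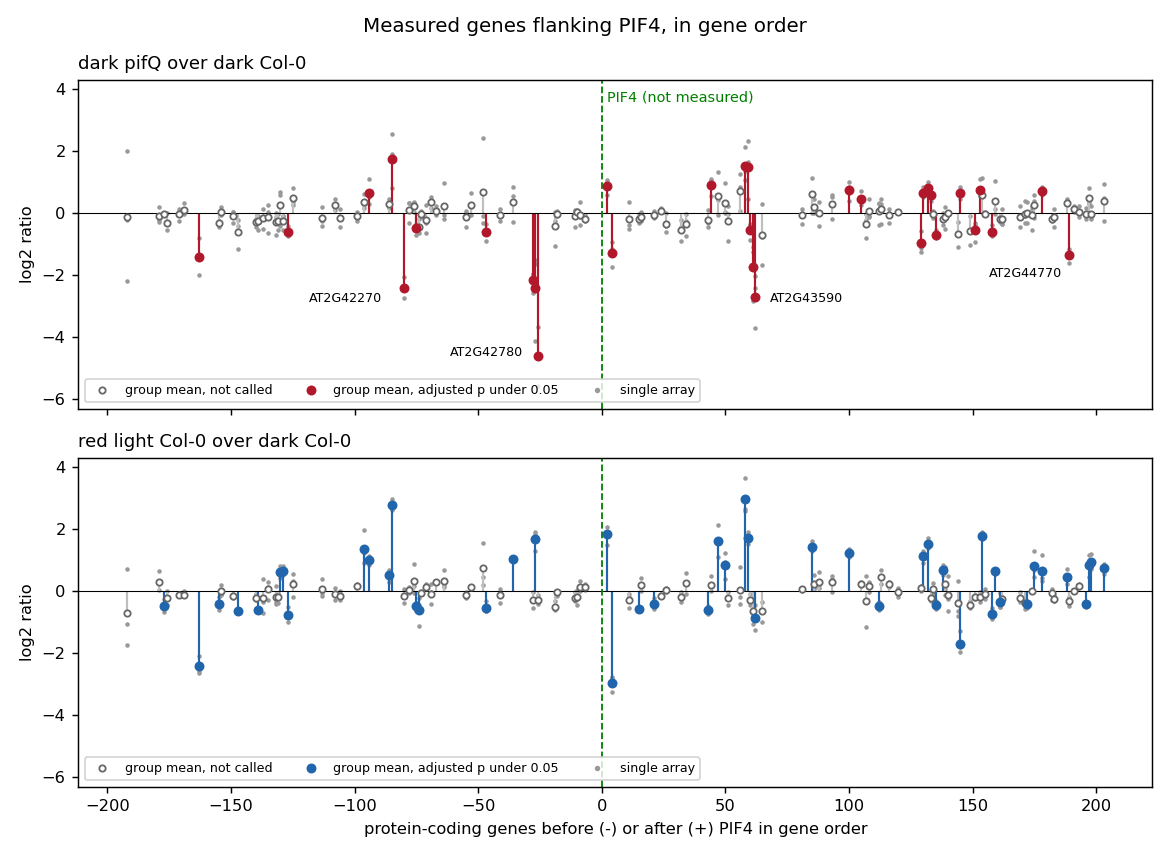
Log2 ratios of the 125 measured neighbours of PIF4 by gene order, for dark pifQ over dark Col-0 (top) and red light Col-0 over dark Col-0 (bottom); the horizontal axis counts protein-coding genes from PIF4, small grey points are single arrays and filled circles are group means called at an adjusted p under 0.05. The deepest pifQ values, down to -4.59 at AT2G42780, have no counterpart of that size at the same place in red light, where 31 and 47 genes are called in the top and bottom panels.

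The calls in pifQ sorted into groups by their red light behaviour. Of the 31, 17 passed in red light too with the same sign (13.6% of members, background 9.57%), 8 lower in both (background 5.39%) and 9 higher in both (background 4.17%). Another 2 were called in opposite directions (background 0.111%), and 12 were not called in red light (9.60%, background 1.95%). For 7 of these 12 the difference between the groups was called as well, 5 lower in pifQ (background 0.138%) and 2 higher (background 0.0553%). In all, 10 members were called in pifQ and in the same direction against red light, 8% of them where 0.318% of all genes were: 7 were lower (background 0.249%) and 3 higher (background 0.0691%) in pifQ than in either dark or red-light-grown Col-0. Among all named genes 18 were lower in this way and 5 higher, so the interval held 7 of the 18 and 3 of the 5. Changes called in pifQ at 2-fold or more numbered 9 lower (background 1.12%) and 3 higher (background 1.11%), of which 4 lower (background 0.138%) and 0 higher (background 0.0415%) had a red light mean within 0.5 of 0. The pifQ and red light ratios share dark Col-0 as their other channel. For this reason they are given side by side, and their group means were not correlated over the members. Dark Col-0 also carried the same dye (Cy3) on every array, without a dye swap. A dye effect on a gene would shift both ratios alike and cannot be told apart from a joint change.

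A block of 3 adjacent genes, 28 to 26 genes before PIF4, fell in pifQ and held the gene with the lowest pifQ mean. AT2G42780, which encodes a protein like elongin A, a subunit of a transcription elongation factor, had log2 ratios of -4.57, -3.65 and -5.55 on the 3 pifQ arrays, against -0.11, -0.40 and -0.33 on the red light arrays. Every pifQ array lay more than 3 log2 units below every red light array. The mean was -4.59 ± 0.95 in pifQ, 24.1-fold lower than in dark Col-0 (adjusted p = 0.000131) and the lowest pifQ mean of all 7234 genes, and -0.28 ± 0.15 in red light (adjusted p = 0.485). The difference of -4.31 (SE 0.40) between pifQ and red light passed at an adjusted p of 0.00114.

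Next to it, AT2G42770, a gene of the Mpv17 and PMP22 family of organelle membrane proteins, moved in opposite directions. It stood at -1.52, -1.65 and -4.10 on the pifQ arrays, against 1.84, 1.89 and 1.29 on the red light arrays. All pifQ values were negative and all red light values positive, and pifQ replicate 3 was far below the other two. The pifQ mean of -2.42 ± 1.46 was called (5.36-fold lower, adjusted p = 0.0118), as was the red light mean of 1.67 ± 0.33 (3.19-fold higher, adjusted p = 0.0153). pifQ was 17.1-fold lower than red light Col-0 (log2 -4.10, SE 0.60, adjusted p = 0.0111). The red light call ended without red light replicate 1 (log2 1.59, adjusted p = 0.0740) and without red light replicate 2 (1.57, 0.0759), while the pifQ call and the difference passed without each array.

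AT2G42760, a gene of unknown function at the far end of the block, had ratios of -1.96, -1.94 and -2.58 on the pifQ arrays, against -0.54, -0.04 and -0.28 on the red light arrays. The groups did not overlap, as was so for 39 of the 125 members. The pifQ mean was -2.16 ± 0.36 (4.47-fold lower, adjusted p = 0.000246) and the red light mean -0.28 ± 0.25 (adjusted p = 0.191), a difference of -1.88 (SE 0.22, adjusted p = 0.00410). Among all genes, pifQ arrays lay entirely below red light arrays for 13.2% and entirely above for 10.6%. Among members, these numbers were 25 below and 14 above.

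The fourth neighbour that fell more than 4-fold on this side of PIF4 lay apart from the block. AT2G42270, 80 genes before PIF4, encodes a helicase related to the Brr2 helicase of the U5 small nuclear ribonucleoprotein, part of the spliceosome. It had ratios of -2.74, -2.06 and -2.39 on the pifQ arrays, against -0.14, -0.36 and 0.08 on the red light arrays. The pifQ values lay close together, and all were far below those of red light. The pifQ mean was -2.40 ± 0.34 (5.26-fold lower, adjusted p = 0.000131), the red light mean -0.14 ± 0.22 (adjusted p = 0.504), and the difference -2.25 (SE 0.21, adjusted p = 0.00114). AT2G42780, AT2G42770, AT2G42760 and AT2G42270 held the ranks 1, 4, 8 and 5 among the pifQ means of all 7234 genes counted from the lowest. Their calls in pifQ and against red light held in every refit tried (other normalizations, other estimates of the spread, a replicate block and leaving out each array).

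On the other side of PIF4 the deepest decrease lay in a run of chitinase genes. Chitinases of glycosyl hydrolase family 19 break down chitin, a component of fungal walls, and several plant chitinases are made in defence. AT2G43590, 62 genes after PIF4, had ratios of -2.40, -2.01 and -3.68 on the pifQ arrays, against -0.43, -0.88 and -1.24 on the red light arrays. All 6 arrays were below dark Col-0, and the pifQ arrays were lower than the red light arrays without overlap. The pifQ mean was -2.70 ± 0.87 (6.49-fold lower, adjusted p = 0.00163), the rank 2 among all genes, and the red light mean -0.85 ± 0.41 (adjusted p = 0.0449). The difference of -1.85 (SE 0.40) passed at an adjusted p of 0.0467, and it ended without any array other than pifQ replicate 3, at adjusted p = 0.0645 to 0.169. Its red light call also ended without any of the red light arrays (0.0650 to 0.196) or without pifQ replicate 1 (0.0684). With arrays scaled to the same spread, the difference (0.0689) and the red light call (0.110) ended too.

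Its neighbours in the run moved less. AT2G43580 stood at -1.09, -1.26 and -2.83 on the pifQ arrays and at -0.08, -0.75 and -1.05 on the red light arrays, lower in pifQ with no overlap. Its pifQ mean of -1.73 ± 0.96 was called (adjusted p = 0.0134, and 0.0505 without pifQ replicate 2), its red light mean of -0.63 ± 0.50 was not (0.153), and neither was the difference of -1.10 (SE 0.45, adjusted p = 0.236). The red light mean of AT2G43580 was called with the spread of the red light arrays alone (0.0486). It was also called with a replicate block (0.0435) and without pifQ replicate 3 (0.0227). CHI (AT2G43570) fell by 0.53 in pifQ (± 0.29, adjusted p = 0.0409), a call that ended without any of the arrays, and had -0.28 ± 0.18 in red light. AT2G43620, 65 genes after PIF4, had 0.31, -0.77 and -1.67 on the pifQ arrays, against -0.98, -0.60 and -0.33 on the red light arrays, and was called in neither group. Genes of such a run can be alike in sequence, and whether the probes tell them apart was not tested.

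Of 14 family 19 genes listed over the genome, 8 were measured, 4 in the interval and 4 outside it. In pifQ 4 of the 8 were called lower (7.04% of all genes) and 0 higher, and 3 of these 4 calls are the interval genes above. In red light 2 were called lower (19% of all genes) and 0 higher, 1 of them in the interval. The median over all 8 was -0.62 in pifQ and -0.46 in red light, beside -0.04 and -0.02 over all genes. Outside the interval, AT3G47540 was lower in pifQ (-0.86 ± 0.39, adjusted p = 0.0257) and had -0.22 ± 0.45 in red light. AT1G02360 was not called in pifQ (-0.21 ± 0.13) and was lower in red light (-1.19 ± 0.33, adjusted p = 0.000381), with pifQ above red light (adjusted p = 0.0346).

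Another pair of neighbours farther from PIF4 was lower in pifQ than in either dark or red-light-grown Col-0. AT2G44770, an ELMO/CED-12 family gene 189 genes after PIF4, had ratios of -1.17, -1.59 and -1.31 on the pifQ arrays, against -0.22, -0.20 and -0.48 on the red light arrays. Its pifQ mean was -1.36 ± 0.22 (2.56-fold lower, adjusted p = 0.000823), its red light mean -0.30 ± 0.16 (adjusted p = 0.0854), and the difference -1.06 (SE 0.17, adjusted p = 0.0175). AT2G44200, 129 genes after PIF4, encodes a protein with the N-terminal domain of the CIR co-repressor and had -1.12, -0.56 and -1.24 on the pifQ arrays, against 0.16, 0.11 and 0.02 on the red light arrays. Its pifQ mean was -0.98 ± 0.36 (adjusted p = 0.00616), its red light mean 0.10 ± 0.07 (adjusted p = 0.641), and the difference -1.07 (SE 0.20, adjusted p = 0.0270). Both pifQ calls passed without each array. The difference for AT2G44770 ended without red light replicate 1 (adjusted p = 0.0989), red light replicate 2 (0.0632) or pifQ replicate 2 (0.0587), and that for AT2G44200 without red light replicates 1 (0.124), 2 (0.0873) or 3 (0.0639) or pifQ replicate 1 (0.106). Both differences also ended with a replicate block (0.0596 for AT2G44770 and 0.0645 for AT2G44200). That for AT2G44200 ended too with quantile normalization (0.0810) and with arrays scaled to the same spread (0.0515).

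**Figure D2:**
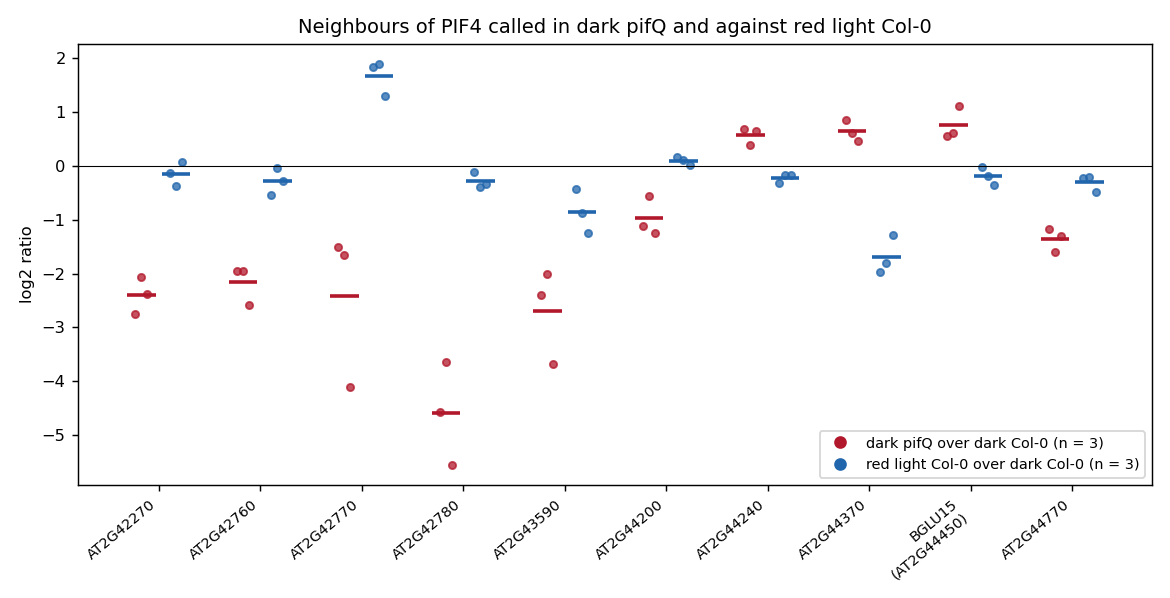
Log2 ratios on every array for the 10 neighbours of PIF4 called in dark pifQ and in the same direction against red light Col-0, in gene order; points are arrays, bars are group means, dark pifQ stands left and red light Col-0 right. The groups do not overlap for any of the 10 genes, which follows largely from choosing them by their difference on these arrays. Among all genes, pifQ arrays lay entirely below red light arrays for 13.2% and entirely above for 10.6%. Of the 10, 7 are lower and 3 higher in pifQ, from AT2G42780 at a mean of -4.59 to BGLU15 at 0.76.

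The 3 neighbours higher in pifQ than in both kinds of Col-0 lay 133 to 153 genes after PIF4, and their changes were smaller. AT2G44370, which encodes a protein with cysteine- and histidine-rich C1 domains, had 0.85, 0.62 and 0.47 on the pifQ arrays, against -1.97, -1.81 and -1.29 on the red light arrays. It was the only member besides AT2G42770 that was called in opposite directions, at 0.65 ± 0.19 in pifQ (adjusted p = 0.0286) and -1.69 ± 0.36 in red light (adjusted p = 9.79e-05). pifQ was 5.05-fold higher than red light Col-0 (log2 2.34, SE 0.21, adjusted p = 0.00103), and this difference passed in every refit tried. Its pifQ call ended without pifQ replicate 1 (adjusted p = 0.145) or replicate 2 (0.102), and with a replicate block (0.0758).

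BGLU15 (AT2G44450), a beta-glucosidase, had 0.55, 0.62 and 1.11 on the pifQ arrays, against -0.02, -0.18 and -0.36 on the red light arrays. The pifQ mean of 0.76 ± 0.31 was called (adjusted p = 0.0131), the red light mean of -0.19 ± 0.17 was not (0.323), and the difference was 0.95 (SE 0.20, adjusted p = 0.0378). Beta-glucosidases split sugars from stored glycosides, and 3 of the 5 in the interval were measured, standing next to each other. BGLU28 (AT2G44460) showed the other pattern, with 0.53, 1.15 and 0.04 on the pifQ arrays (0.57 ± 0.55, adjusted p = 0.0809) and 1.92, 1.74 and 1.67 on the red light arrays (1.78 ± 0.13, adjusted p = 0.000231). It was lower in pifQ than in red light by a log2 difference of -1.20 (SE 0.26, adjusted p = 0.0467). BGLU29 (AT2G44470) stayed near 0, at -0.01 ± 0.06 in pifQ and -0.10 ± 0.16 in red light.

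The last of the 3, AT2G44240, of a family with a neprosin-type domain (DUF239), had 0.69, 0.39 and 0.64 on the pifQ arrays, against -0.31, -0.18 and -0.16 on the red light arrays. Its mean was 0.58 ± 0.16 in pifQ (adjusted p = 0.0147) and -0.22 ± 0.08 in red light (adjusted p = 0.156), with a difference of 0.79 (SE 0.16, adjusted p = 0.0317). Its pifQ call ended without pifQ replicate 1 (adjusted p = 0.0835). The differences for BGLU15 and AT2G44240 ended without any array other than pifQ replicate 3, at adjusted p = 0.0766 to 0.115 and 0.0522 to 0.169. That for BGLU28 ended without any array other than pifQ replicates 2 and 3, at 0.0874 to 0.173. It also ended with quantile normalization (log2 -0.69, 0.484) and with centring (0.0525). For BGLU15, AT2G44240 and BGLU28 the difference ended with arrays scaled to the same spread (0.0643, 0.0568 and 0.220). A replicate block ended them too (0.107, 0.107 and 0.0740). Another DUF239 gene 3 places before it, AT2G44210, was higher in both groups, at 0.65 ± 0.18 in pifQ (adjusted p = 0.0157) and 1.14 ± 0.21 in red light (adjusted p = 0.000285), its pifQ call ending without pifQ replicate 1 (0.0910) or 2 (0.0553).

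For 5 further neighbours the pifQ ratio was called, the red light ratio was not, and the difference was not called either. In the fit used for the calls, these cannot be set apart from red light. CHI and AT2G43580 are given above. The F-box gene AT2G43440, 44 genes after PIF4, stood at 1.10, 1.05 and 0.57 on the pifQ arrays, against 0.01, 0.13 and 0.50 on the red light arrays. Its difference was 0.69 (SE 0.21, adjusted p = 0.121), and its pifQ call ended without pifQ replicate 1 (0.0612) or 2 (0.0543). That difference was called with arrays weighted by their scatter (0.0261) and without pifQ replicate 3 (0.0372). AT2G44430, a bromodomain gene, was at -0.54 ± 0.33 in pifQ and -0.18 ± 0.07 in red light (difference adjusted p = 0.368), and AT2G43990 at 0.45 ± 0.23 in pifQ and 0.24 ± 0.07 in red light (0.564). The pifQ calls of the last 2 genes ended without pifQ replicate 1 or 2 or any of the red light arrays, and that of AT2G44430 also without pifQ replicate 3.

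**Figure D3:**
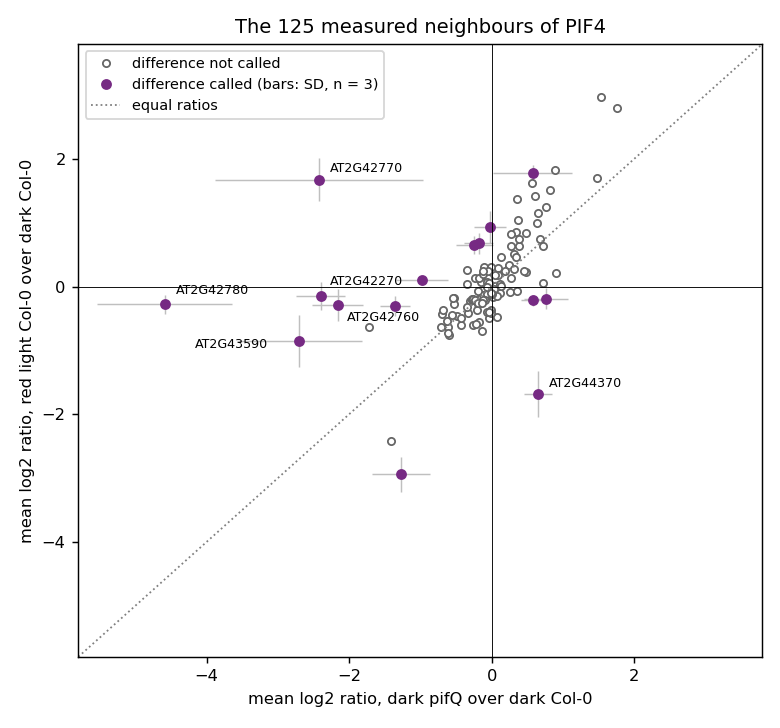
Mean log2 ratio in red light Col-0 (vertical) against that in dark pifQ (horizontal), both over dark Col-0, for the 125 neighbours of PIF4; filled points with SD bars are the 15 genes whose difference between the groups was called, and the dotted line marks equal ratios. AT2G42780, AT2G42270 and AT2G42760 lie far left of 0 but within 0.3 of 0 in red light, and AT2G42770 and AT2G44370 lie in the quadrants of opposite sign.

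From 25 genes before PIF4 to 40 after it, 16 neighbours were measured, and 2 of them were called in pifQ, a share near the 11.6% of all genes. This span was set with the values known and ends just short of called genes (AT2G42780 at 26 genes before and AT2G43440 at 44 after), so the count is a description only. Both genes moved in the same direction in red light. AT2G43030, 2 genes after PIF4, encodes a ribosomal protein L3 of the plastid type and rose in both, with 1.08, 0.99 and 0.59 on the pifQ arrays and 2.08, 1.92 and 1.49 on the red light arrays. ATPMEPCRD (AT2G43050), a pectin methylesterase gene 4 genes after PIF4, fell in both, with -0.93, -1.73 and -1.16 on the pifQ arrays and -3.26, -2.77 and -2.79 on the red light arrays. For each, every array moved to the same side of 0, and the red light arrays moved farther without overlap.

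AT2G43030 averaged 0.89 ± 0.26 in pifQ (adjusted p = 0.00978) and 1.83 ± 0.31 in red light (adjusted p = 7.00e-05), a difference of -0.94 (SE 0.21) that missed the threshold at an adjusted p of 0.0508. Its pifQ call ended without pifQ replicate 1 (adjusted p = 0.0687) or 2 (0.0592). Its difference was called with arrays weighted by their scatter (0.0169) and without red light replicate 3 (0.0428). ATPMEPCRD averaged -1.27 ± 0.41 in pifQ (adjusted p = 0.00449) and -2.94 ± 0.27 in red light (adjusted p = 1.48e-05), and pifQ was 3.18-fold above red light (log2 1.67, SE 0.24, adjusted p = 0.00992). With quantile normalization this difference was 0.97 (adjusted p = 0.223) and with arrays scaled to the same spread 1.21 (0.102).

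On the side before PIF4, the 5 nearest measured genes, from AT2G42860 (18 places away) to AT2G42950 (7 places away), had pifQ means from -0.18 (AT2G42950) to 0.02 (AT2G42920) and red light means from -0.20 (AT2G42910) to 0.14 (AT2G42930). None was called in any of the 3 comparisons. AT2G42910 is a ribose-phosphate pyrophosphokinase gene and AT2G42920 encodes a pentatricopeptide repeat protein. On the side after PIF4, the pirin gene AT2G43120 had -0.19 ± 0.46 in pifQ and -0.27 ± 0.24 in red light, and AT2G43180 had -0.12 ± 0.15 in pifQ and 0.19 ± 0.22 in red light. AT2G43160, an epsin gene of vesicle traffic, had -0.18 ± 0.15 in pifQ and was called lower in red light (-0.56 ± 0.01, adjusted p = 0.00395).

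Neighbours that moved together in pifQ and red light included the chloroplast genes of the interval. Of 11 chloroplast genes listed, 4 were measured: 3 were called higher and 0 lower in pifQ, and 4 higher and 0 lower in red light, where 4.59% of all genes were called higher in pifQ and 18.8% in red light. Their medians were 1.18 in pifQ and 1.77 in red light, beside -0.04 in pifQ and -0.02 in red light over all genes. AT2G42220, a chloroplast rhodanese-like gene 85 genes before PIF4, had 2.55, 1.90 and 0.82 on the pifQ arrays and 2.62, 2.78 and 2.97 on the red light arrays. AT2G43560, an FKBP-type peptidyl-prolyl isomerase of the thylakoid lumen, had 1.65, 2.32 and 0.47 on the pifQ arrays and 1.68, 1.92 and 1.53 on the red light arrays. In both genes pifQ replicate 3 was the lowest of the 6 arrays.

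The mean of AT2G42220 was 1.76 ± 0.87 in pifQ (3.38-fold, adjusted p = 0.00687, and 0.0522 without pifQ replicate 2) and 2.79 ± 0.17 in red light (6.92-fold, adjusted p = 0.000144). That of AT2G43560 was 1.48 ± 0.93 in pifQ (adjusted p = 0.0148) and 1.71 ± 0.20 in red light (adjusted p = 0.00207), and its pifQ call ended without pifQ replicate 1 (0.0938) or 2 (0.0741). The fibrillin gene AT2G42130, of a family of plastid lipid-associated proteins, is not on that list. Its features averaged to 1.10, 0.53 and 0.30 on the pifQ arrays and 1.12, 1.02 and 0.85 on the red light arrays, both groups called, the pifQ call ending without pifQ replicate 1 (0.141) or 2 (0.0975) or red light replicate 1 (0.0627). AT2G44920, the fourth listed gene, had 0.39 ± 0.59 in pifQ (adjusted p = 0.237) and 0.74 ± 0.17 in red light (adjusted p = 0.0184, and 0.0923 and 0.0936 without red light replicates 1 and 2). In whole seedlings, more cells of a kind and more RNA per cell cannot be told apart.

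Among joint increases, AT2G43550 had the highest red light mean of the members, while AT2G42220 had the higher pifQ mean. AT2G43550 is a gene for a small defensin-like protein of the trypsin inhibitor family, 58 genes after PIF4, and had 2.13, 1.37 and 1.08 on the pifQ arrays and 2.60, 3.66 and 2.63 on the red light arrays. All arrays were above dark Col-0, and red light was higher with no overlap. Its mean was 1.53 ± 0.54 in pifQ (2.88-fold, adjusted p = 0.00817, and 0.0595 without pifQ replicate 1) and 2.96 ± 0.60 in red light (7.79-fold, adjusted p = 7.50e-05), and the difference of -1.43 (SE 0.35) had an adjusted p of 0.0660. AT2G43535 of the same family had 0.72 ± 0.60 in pifQ and 0.05 ± 0.64 in red light, called in neither, and these are the 2 measured of 5 listed. AT2G43550, AT2G43560, CHI, AT2G43580 and AT2G43590 follow each other with no annotated protein-coding gene between them, and in pifQ the first pair rose while the 3 chitinase genes fell.

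Among joint decreases, AT2G41480, a class III peroxidase gene, had -1.44, -0.78 and -1.99 on the pifQ arrays and -2.63, -2.56 and -2.07 on the red light arrays. It averaged -1.41 ± 0.61 in pifQ (2.65-fold lower, adjusted p = 0.00687) and -2.42 ± 0.30 in red light (5.35-fold lower, adjusted p = 9.62e-05), and its pifQ call missed the threshold without pifQ replicate 1 (0.0540). The other joint decreases were smaller: AT2G41830, AT2G42320, TBL39, AT2G44260 and the O-fucosyltransferase gene AT2G44500 ranged in mean from -0.70 to -0.49 in pifQ and from -0.76 to -0.43 in red light. AT2G44260 passed in pifQ without each array (-0.70 ± 0.15, adjusted p = 0.00817), and the other 4 did not. TBL39 belongs to a family of polysaccharide O-acetyltransferases of the cell wall. The other joint increases, AT2G43945, the DUF946 gene AT2G44230 and the FLZ-type zinc finger gene AT2G44670, had means from 0.73 to 0.81 in pifQ and from 0.64 to 1.52 in red light, and each lost its pifQ call without pifQ replicate 1 (adjusted p = 0.0773, 0.0533 and 0.130).

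Of the 17 neighbours called in the same direction in both, 5 lay farther from 0 in pifQ: AT2G42320, TBL39, AT2G43590, AT2G44260 and AT2G44670. AT2G43590 was the only member of these whose difference from red light was called in the pifQ direction.

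The remaining 94 neighbours were not called in pifQ, and 28 of these were called in red light, 16 higher and 12 lower (22.4% of members, background 28.1%). For 4 of the 28 the difference was called, each being higher in red light than in pifQ. These were BGLU28, AT2G41810, AT2G44290 and AT2G44870. AT2G41810, a DUF642 cell wall protein gene, averaged -0.24 ± 0.26 in pifQ and 0.64 ± 0.14 in red light (adjusted p = 0.0366 for the difference). AT2G44290, a lipid transfer protein-like gene, averaged -0.18 ± 0.20 in pifQ and 0.68 ± 0.17 in red light (0.0336), and AT2G44870 averaged -0.02 ± 0.22 in pifQ and 0.93 ± 0.25 in red light (0.0331). Each of these 3 differences ended without any array other than pifQ replicate 3, at adjusted p = 0.0502 to 0.173. All 3 also ended with quantile normalization (0.153 to 0.160), with arrays scaled to the same spread (0.0752 to 0.0938) and with a replicate block (0.0877 to 0.109).

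The other 66 neighbours were called in none of the comparisons, with pifQ means from -0.71 (AT2G43620) to 0.72 (AT2G43535). Among the cold and dehydration genes of the interval, 3 of 8 were measured, 0 were called in pifQ and 1 (LEA26, AT2G44060, at 0.08 ± 0.40 in pifQ and -0.47 ± 0.13 in red light) was called lower in red light, a call that ended without any of the red light arrays (0.0856 to 0.180). The late embryogenesis genes M17 (AT2G41260) and AT2G42560 differed widely between arrays: M17 had -2.18, -0.21 and 1.99 on the pifQ arrays and -1.75, 0.70 and -1.07 on the red light arrays. AT2G42560 had -0.33, -0.09 and 2.43 on the pifQ arrays and 1.56, 0.21 and 0.47 on the red light arrays. Both were highest on pifQ replicate 3. None of 11 seed storage genes listed as markers of ungerminated seed was measured. Of 8 root hair markers 2 were measured, and 0 were called in any comparison. UGT74F1, a glucosyltransferase of salicylic acid and the 1 measured of 2 listed, had -0.01 ± 0.40 in pifQ and 0.30 ± 0.27 in red light.

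Regulators of light responses and growth that lie in the interval could hardly be followed. Of 13 listed, 1 was measured: LBD16, a transcription factor of lateral root formation, had -0.05, -0.19 and 0.96 on the pifQ arrays, against 0.68, 0.20 and 0.15 on the red light arrays. It was called in neither group.

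The intervals of the same span of locus numbers around the other mutated PIF genes did not show as many calls in pifQ. Around PIF3, 14 of 121 measured genes were called in pifQ (11.6%), around PIF1 11 of 104 (10.6%) and around PIF5 13 of 116 (11.2%), against 31 of 125 (24.8%) around PIF4. Genes called in the pifQ direction both against dark and against red-light-grown Col-0 numbered 10 around PIF4 and 0 around each of the other 3. Differences between pifQ and red light numbered 15 around PIF4, 1 around PIF3, 2 around PIF1 and 1 around PIF5. The lowest pifQ mean was -4.59 around PIF4, -1.06 around PIF3, -1.19 around PIF1 and -1.05 around PIF5. In red light the shares were 37.6% around PIF4, 41.3% around PIF3, 36.5% around PIF1 and 37.9% around PIF5. These are counts without a test of their difference.

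**Figure D4:**
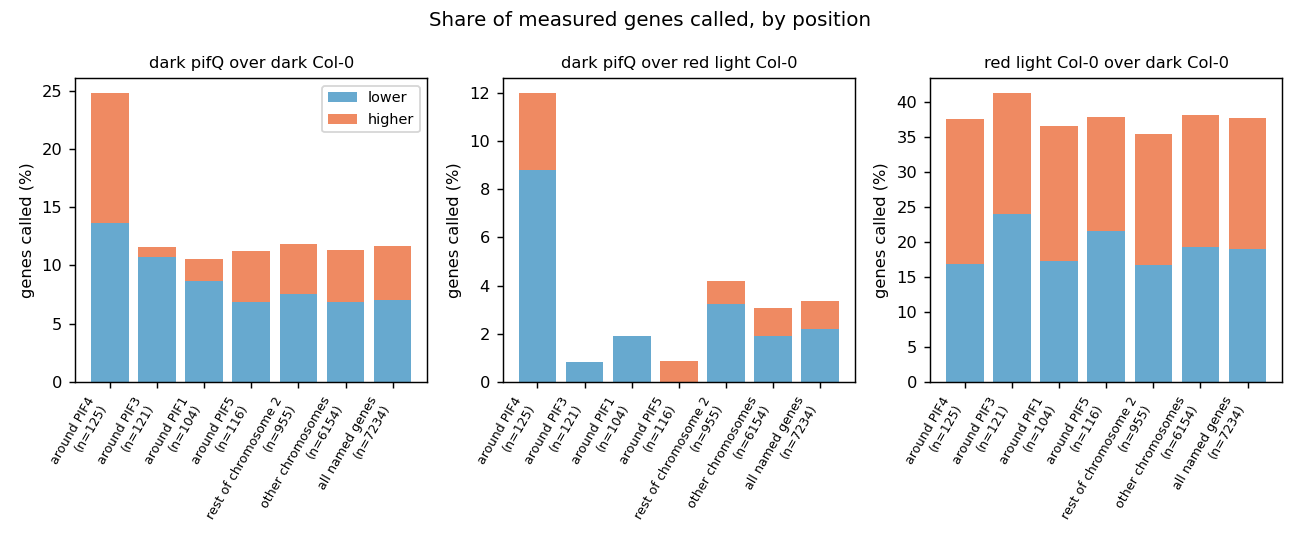
Percent of measured genes called at an adjusted p under 0.05, lower (blue) and higher (orange), in dark pifQ over dark Col-0, dark pifQ over red light Col-0 and red light Col-0 over dark Col-0; bars are the intervals around the 4 mutated PIF genes, the rest of chromosome 2 (which holds the PIF1 interval), the other chromosomes and all named genes, with the number of genes under each. The PIF4 bar is the tallest in the left panel (24.8%) and the middle panel (12.0%) and not in the right one (37.6%).

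Within the interval, both sides of PIF4 held such genes. Before PIF4, 10 of 54 were called in pifQ (18.5%), 8 lower and 2 higher, and after it 21 of 71 (29.6%), 9 lower and 12 higher. The rest of chromosome 2 stood at 11.8%. The limits of the interval are round locus numbers, and similar values occur beyond them: AT2G40920, 234 genes before PIF4, had -2.45, -1.49 and -1.91 on the pifQ arrays, against -0.08, -0.49 and 0.02 on the red light arrays. Its pifQ mean of -1.95 ± 0.48 was called (adjusted p = 0.000974), and so was its difference from red light (-1.77, SE 0.26, adjusted p = 0.0107); it was chosen after its values were seen. Of the 5 nearest measured genes beyond the near limit, AT2G41120 was called higher in pifQ (1.71 ± 0.26, adjusted p = 0.00496) and in red light (1.85 ± 0.72, adjusted p = 0.000546), and AT2G41130 was called lower in pifQ (-0.54 ± 0.20, adjusted p = 0.0273) and not in red light (-0.25 ± 0.18, adjusted p = 0.149). Neither differed between the groups past the threshold (adjusted p = 0.853 for AT2G41120 and 0.425 for AT2G41130). The 5 nearest measured genes beyond the far limit, AT2G45010 to MAP1A (AT2G45240), had pifQ means from -0.36 to 0.13, and 0 of them were called in pifQ.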

How the data were processed

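The authors deposited 1 log2 ratio per feature and array, sample (Cy5) over dark-grown Col-0 (Cy3), with the direction taken from titles and dyes per the labels. The base is not stated and was taken as 2, and values run from -5.63 to 7.85. limma is named per the submitters' processing notes, with background correction and normalization not given in the sources used here. Array medians lay near 0, no value was missing and no intensities were used. Precision is limited by the number of arrays. Of 45220 features, 7440 have 1 gene name and 37780 none here. All 7440 matched TAIR10.1 by gene identifier, and features of a gene were averaged (2 members have 2). limma 3.58.1 in R 4.3.3 (lmFit, eBayes) was fitted over 6 arrays with 1 coefficient per group. Group means were tested against 0, and pifQ minus red light was a contrast. How far variation among dark Col-0 controls enters the ratios and their spread is unknown, because a common extract for all arrays is not established. Tests were two-sided, and the fit was checked on simulated data. Labels call the replicates independently grown, and equal numbers did not pair: deviations of same-numbered arrays correlated at -0.176, -0.148 and -0.167. Deviations of differently numbered arrays of the 2 groups correlated at -0.111 to 0.256. The highest were pifQ replicate 2 with red light replicate 3 (0.256), pifQ 3 with red light 1 (0.241) and pifQ 1 with red light 2 (0.182). A pairing under such other numbers was not tested. Whether any of these arrays shared a dark Col-0 extract is not known.

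The members, gene lists and naming rule were chosen with earlier results of these data known. The rule names every member called in pifQ or against red light, the 5 measured genes next to PIF4 on each side, the 5 largest red light changes per direction and list members in the interval. Listed genes of HOL methyltransferases, defence markers and the mutated PIF genes were not measured. Alternatives were centring, scaling, quantile normalization, unaveraged features, another estimate of the spread, a robust prior, a replicate block, a 2-fold rule and leaving out each array. Weighting arrays by their scatter was tried too, for the difference from red light only.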

Additional observations from a re-analysis of the deposited data

How the results depend on the processing

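Of 2028 values of 52 named genes under the alternatives, 0 changed sign after being called, 161 lost a call and 19 gained one. All 31 named pifQ calls passed under quantile normalization, scaling, unaveraged features and a robust prior, and centring ended 1 (CHI). Estimating the spread within pifQ only ended 9 of the 31. It gave 22 members called (17.6%, where 6.12% of all genes were called). The replicate block also ended 9, with 23 members called (18.4%, background 6.39%). The 2-fold rule was counted over members and not gene by gene, so every refit here means all other alternatives. Of the 31 pifQ calls, 10 passed in every refit, among them AT2G42270, AT2G42760, AT2G42770, AT2G42780, AT2G43590, AT2G44200 and AT2G44770. Of the 15 calls against red light, 5 did: AT2G42270, AT2G42760, AT2G42770, AT2G42780 and AT2G44370. Leaving out 1 array gave 13 to 33 members called in pifQ (31 with all arrays), 27 to 53 in red light (47), 6 to 20 against red light (15) and 5 to 11 called both in pifQ and against red light (10), the last count having been put through the alternatives only after seeing the data. Requiring a 2-fold change on all 3 arrays in place of the test gave 8 members in pifQ (6.4%, background 0.829%). In red light it gave 13 (10.4%, background 5.88%). Calls against red light numbered 9 (6 lower, 3 higher, background 1.02%) with quantile normalization. With scaling they numbered 6 (5 and 1, background 1.24%), where 6 were called both ways (background 0.276%). With the replicate block they numbered 7 (background 1.66%), of which 5 were called both ways (background 0.166%), although equal numbers did not pair the arrays. With arrays weighted by their scatter, 22 members were called against red light (17.6%, background 8.83%). The share of members called exceeded that of all genes under 13 of 13 tested alternatives in pifQ and against red light, and under 6 of 13 in red light. The causes were not tested. The deposited ratios give no signal over background, so how it limits low spots is unknown.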

Other observations

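Beyond the interval, 11 of the 7109 other named genes were called lower in pifQ both against dark Col-0 and against red light Col-0. They include QQS (AT3G30720) at -1.60 in pifQ and 0.15 in red light, the AP2-type transcription factor gene tny (AT5G25810) at -1.11 in pifQ and 0.07 in red light, and the clock gene GI (AT1G22770) at -0.44 in pifQ and 0.70 in red light. Another 3 lie on chromosome 2: AT2G40920 at -1.95 in pifQ and -0.18 in red light, AT2G05910 at -1.14 in pifQ and 0.11 in red light, and AT2G25450 at -0.63 in pifQ and 0.59 in red light. The 2 genes called higher in both ways outside the interval were AT1G55210 (0.86 in pifQ and 0.04 in red light) and AT5G64100 (0.48 in pifQ and -0.32 in red light). These genes were chosen after their values were seen.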
